A study of Homo sapiens with 9 samples.

Results

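The lysosome is the acidic compartment in which cells break down material taken up from outside or delivered by autophagy, the process that wraps the cell's own components in a membrane and hands them to the lysosome. In human cells many genes of this compartment carry a common promoter element, the CLEAR element, which is bound by the related transcription factors TFEB, TFE3 and MITF. When amino acids are plentiful, Rag GTPases and the kinase complex mTORC1 at the lysosomal surface hold these factors in the cytoplasm, and when that hold is released they enter the nucleus and transcribe lysosomal and autophagy genes.

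The genes described here are 40 human genes of this system, matched by Ensembl identifier among the 61093 genes of the deposited table. They were chosen by name from their known roles, with earlier results of these data known. Counts among the 40 set beside shares of all tested genes are therefore a description. The 40 genes comprise 4 lysosomal membrane proteins, 6 proteases, 6 glycosidases, 4 genes of lysosomal lipid handling, 5 of the vacuolar ATPase, the 3 transcription factors, 5 of FLCN and Rag GTPase signalling, 6 of the autophagy machinery and the glycoprotein gene GPNMB. All 40 were found, and all 40 passed the filter on low values, which 17492 genes passed.

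RNA was sequenced from cells labelled HepG2, a line from a human liver tumour. The 9 libraries form 3 groups of 3: cells given SKF-96365, described by the series as an inhibitor of the calcium-permeable cation channel TRPV2, cells given 2-APB, described as an agonist of it, and a control group whose treatment label reads NULL. Both compounds are known to act on other calcium channels as well. Doses, times of exposure, vehicle and batch are not given in the labels, nor whether the libraries of a group came from separate cultures, so p-values cover the spread among these libraries and no more. The 2-APB libraries have ABP in their titles and TRPV2 in their value columns, and the treatment label alone places them in that group.

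Gene-assigned reads recovered from the values numbered between 14786059 and 19026545 in 8 libraries, and for SKF-96365 3 their number was not certain. Of 10 hepatocyte marker genes, 1, SERPINA1, passed the filter, and ALB did not exceed 11.8 normalized counts in any library, nor AFP 8.87, so most defining markers of the labelled cell type were at or near 0. Control 3 and SKF-96365 1 stood apart from the other libraries of their groups. With these files, an exchange of samples or labels cannot be told apart from a difference among libraries of 1 group, so every fold change is one between groups as labelled. The median absolute log2 difference over the 40 genes was 0.0676 between SKF-96365 2 and control 3 and 0.0760 between SKF-96365 2 and SKF-96365 3, but 0.516 between SKF-96365 1 and SKF-96365 2 and 0.512 between control 2 and control 3. The smallest, 0.0331, was between 2-APB 1 and 2-APB 2, while 2-APB 3 differed from 2-APB 1 by 0.271 and from 2-APB 2 by 0.297. It was nearer to SKF-96365 1, at 0.169, and to control 1, at 0.209, so 2-APB 3 also stood apart from its group. For 2-APB 3 over all tested genes, the differences were 0.166 from SKF-96365 1, 0.196 from control 1 and 0.266 from 2-APB 1. Over all tested genes the same measure was 0.133 for SKF-96365 2 and control 3, 0.363 for SKF-96365 1 and SKF-96365 2, and 0.417 for control 2 and control 3.

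Values are normalized counts, that is, gene counts divided by a DESeq2 size factor per library, and fold changes are on the log2(normalized count + 1) scale. No gene of the 40 was called in any comparison at a Benjamini-Hochberg adjusted p under 0.05 in limma, where 0% of all tested genes were called. The 40 genes took 0.603, 0.929 and 0.929% of the signal in SKF-96365 libraries 1, 2 and 3, 0.634, 0.634 and 0.520% in the 2-APB libraries, and 0.563, 0.604 and 0.926% in the controls. SKF-96365 2, SKF-96365 3 and control 3 thus held the largest shares, and 2-APB 3 the smallest. These were the 3 highest libraries for 30 of the 40 genes, an order shown by 16.4% of all tested genes, and the 3 lowest libraries for 1 of the 40, TFE3, an order shown by 17.6% of all tested genes. In bulk RNA, fewer cells of a kind and less RNA per cell cannot be told apart.

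**Figure D1:**
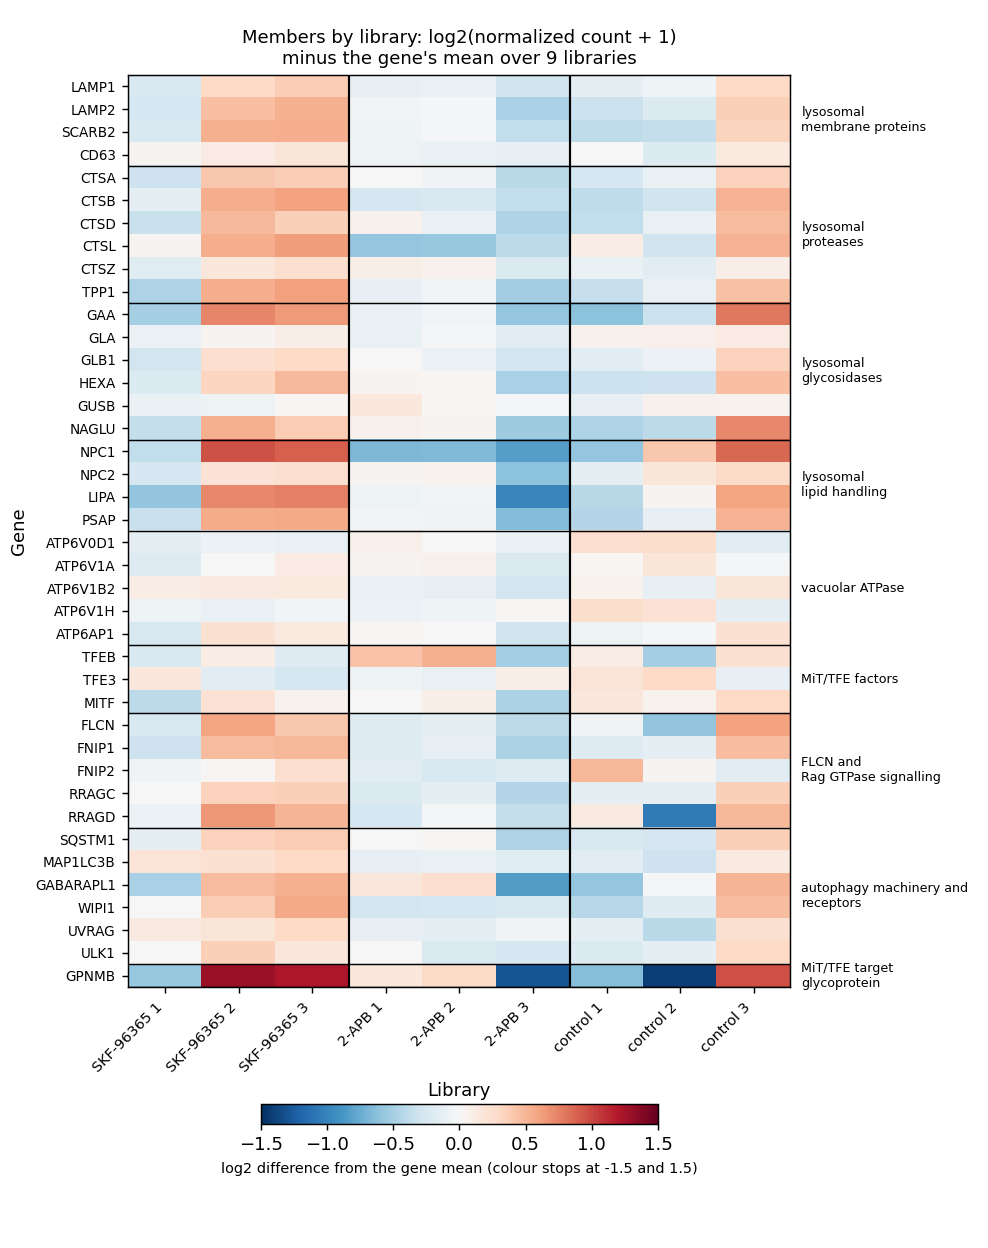
Each row is 1 of the 40 genes, grouped by role, and each column 1 library; colour gives log2(normalized count + 1) minus the gene's mean over the 9 libraries. SKF-96365 2, SKF-96365 3 and control 3 are the 3 highest libraries for 30 of the 40 rows, and GPNMB and NPC1 have the widest ranges.

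The order of libraries ran unevenly through the roles. It was found in 4 of 4 membrane proteins, 6 of 6 proteases and 4 of 4 lipid handling genes. It was also found in 4 of 6 glycosidases, 4 of 5 FLCN and Rag genes, 5 of 6 autophagy genes and GPNMB. It was found in 2 of 5 genes of the vacuolar ATPase and in 0 of 3 transcription factors. In 12 of the 30 genes, 2-APB 1 and 2-APB 2 came next, beside 930 of the 2870 tested genes with the order, or 32.4%. The 9 genes with neither order were GLA, GUSB, ATP6V0D1, ATP6V1A, ATP6V1H, TFEB, MITF, FNIP2 and MAP1LC3B.

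Proliferation genes ran the other way across the libraries. SKF-96365 2, SKF-96365 3 and control 3 were the 3 lowest libraries for 9 of 10 genes on a proliferation list that includes MKI67, a nuclear antigen of cycling cells. The exception was TOP2A, the topoisomerase that untangles replicated DNA, which was lowest in control 3 and SKF-96365 1. The median log2 difference from the gene mean over that list was 0.01, -0.39 and -0.38 in SKF-96365 libraries 1 to 3, 0.01, 0.05 and 0.33 in the 2-APB libraries, and 0.40, 0.41 and -0.44 in the controls. Over the 40 lysosomal and autophagy genes it was -0.22, 0.35 and 0.36 in SKF-96365 libraries, -0.07, -0.05 and -0.38 in 2-APB libraries, and -0.15, -0.13 and 0.35 in controls. The part of proliferation in the order of the 40 genes was not tested.

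**Figure D2:**
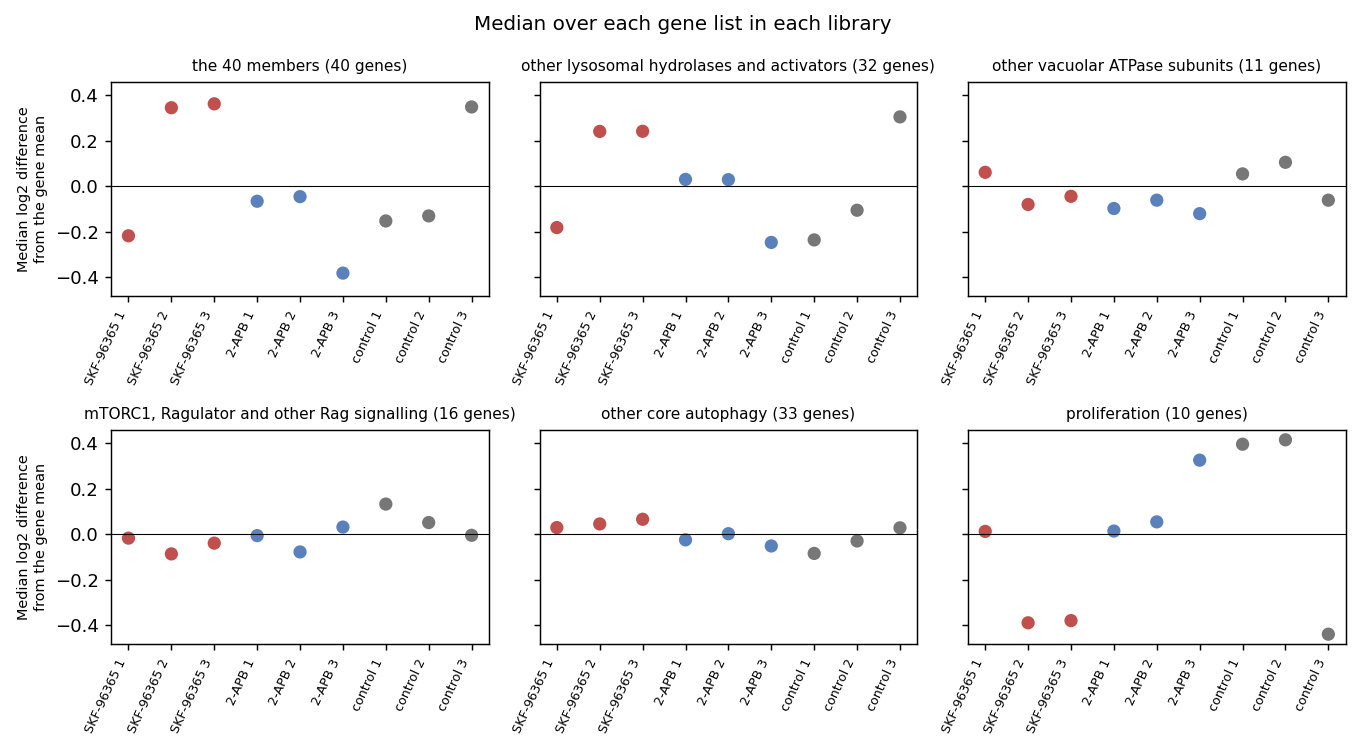
Each point is the median, over the genes of 1 list, of the log2 difference from the gene's mean in 1 library (red SKF-96365, blue 2-APB, grey control). The 40 genes and the other lysosomal hydrolases are highest in SKF-96365 2, SKF-96365 3 and control 3, where the proliferation list is lowest.

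The transcription factors themselves did not share the order of libraries found in most of the 40 genes. TFEB, the best known activator of lysosomal genes, had 63.8, 81.2 and 65.5 normalized counts in SKF-96365 libraries 1, 2 and 3, 100.9, 109 and 52.3 in the 2-APB libraries, and 81.03, 52.7 and 87.7 in the controls. Its highest values were in 2-APB 1 and 2-APB 2 and its lowest in 2-APB 3, and all 3 groups overlapped. Per kilobase of exon it was the lowest of the 40 genes, at a mean of 13.7 normalized counts.

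TFE3, which binds the same element, had 2549, 2037 and 1893 normalized counts in SKF-96365 libraries, 2159.5, 2115 and 2429.6 in 2-APB libraries, and 2609, 2804 and 2098 in controls. Its 3 lowest libraries were those in which most of the 40 genes were highest. At 537 normalized counts per kilobase it was the most abundant of the 3 factors, MITF having 29.9.

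MITF, the family member known as the regulator of pigment cell genes, had 161, 247 and 219 normalized counts in SKF-96365 libraries, 213, 225 and 152 in 2-APB libraries, and 238, 220.1 and 261 in controls. Its groups overlapped, with the lowest values in 2-APB 3 and SKF-96365 1. The limma log2 fold changes for SKF-96365 against control were -0.05 for TFEB, -0.21 for TFE3 and -0.22 for MITF. For 2-APB against control they were 0.20, -0.16 and -0.30, and for 2-APB against SKF-96365 0.25, 0.06 and -0.09, in the same order of genes. No unadjusted p among these 9 was below 0.175. The direction for TFEB against control rested on single libraries, since SKF-96365 against control gave 0.09 without control 3 and 2-APB against control gave -0.02 without control 2.

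Sequence around the start site was available for 30 of the 40 genes as promoter windows of 250 bases before to 50 after the start (RefSeq, GRCh38.p14), and for 27305 genes in all. The CLEAR element was searched on both strands as GTCACGTGAC, its inner part as TCACGTGA and its core as CACGTG, each contained in the one before, so that the matches overlap. The whole element was found in 1 of the 30, GAA, and in 0.421% of all genes. The inner part was found in 4 of the 30 (LAMP1, CTSA, GAA and ATP6V0D1) and in 1.18% of all genes. The core was found in 8 of the 30, those 4 with CD63, CTSD, FNIP1 and RRAGC, and in 8.77% of all genes. TCACATGA and its reverse complement TCATGTGA, the letters of the M-box bound by MITF in pigment cell genes, were searched after the data were seen and were found in 4 of the 30 (CD63, TPP1, FNIP2 and GPNMB) and in 1.24% of all genes. A match is a run of letters and was not shown to be bound here.

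The stretches shown run from 100 bases before to 10 after the start on the gene's own strand. They are the 4 with the inner part of the CLEAR element, of which 1 gene, ATP6V0D1, did not share the order of the others, and that of GPNMB, the gene with the widest range. Capitals mark the motif, with the flanking bases of the whole CLEAR element in GAA.
GAA, chr17:80101481-80101590, plus strand: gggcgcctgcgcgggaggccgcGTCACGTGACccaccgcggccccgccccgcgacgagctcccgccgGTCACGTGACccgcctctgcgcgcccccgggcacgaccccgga
LAMP1, chr13:113297139-113297248, plus strand: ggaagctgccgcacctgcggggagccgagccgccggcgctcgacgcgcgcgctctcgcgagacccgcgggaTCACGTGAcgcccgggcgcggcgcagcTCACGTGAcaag
CTSA, chr20:45891235-45891344, plus strand: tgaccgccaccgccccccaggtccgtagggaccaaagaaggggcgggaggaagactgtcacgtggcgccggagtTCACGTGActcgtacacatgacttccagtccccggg
ATP6V0D1, chr16:67481148-67481257, minus strand: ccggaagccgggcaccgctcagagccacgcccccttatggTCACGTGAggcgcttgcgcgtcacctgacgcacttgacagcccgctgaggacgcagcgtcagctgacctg
GPNMB, chr7:23246675-23246784, plus strand: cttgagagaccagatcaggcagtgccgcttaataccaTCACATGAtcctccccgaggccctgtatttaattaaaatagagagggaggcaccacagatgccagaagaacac

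GPNMB, a glycoprotein of lysosomes and melanosomes known as a target of the MITF family, had the widest range of the 40 genes, with its highest library 6.58 times its lowest. It had 200.04, 734 and 691 normalized counts in SKF-96365 libraries 1, 2 and 3, 332, 364 and 121 in the 2-APB libraries, and 190.5, 112 and 585 in the controls. The high libraries were SKF-96365 2, SKF-96365 3 and control 3, the low ones control 2 and 2-APB 3, and all groups overlapped. GPNMB averaged 542 ± 297 in SKF-96365, 273 ± 132 in 2-APB and 296 ± 254 in control libraries (SD, n = 3 each). The limma log2 fold change was 1.01 (SE 0.67, adjusted p = 0.789) for SKF-96365 against control, 0.08 (SE 0.67, adjusted p = 0.9995) for 2-APB against control and -0.93 (SE 0.67, adjusted p = 0.724) for 2-APB against SKF-96365. With 1 library left out, the first of these lay between 0.48 without control 2 and 1.67 without control 3, and the last between -1.54 without SKF-96365 1 and -0.42 without 2-APB 3. The direction for 2-APB against control turned with single libraries, from -0.45 without control 2 to 0.74 without control 3.

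The folliculin and Rag GTPase genes act upstream of the factors. Folliculin, encoded by FLCN, works with its partners FNIP1 and FNIP2 as the activator of the Rag GTPases RRAGC and RRAGD, which bring TFEB and TFE3 to the lysosome. FNIP1 had 1074, 1844 and 1886 normalized counts in SKF-96365 libraries, 1162, 1223 and 954 in 2-APB libraries, and 1159.6, 1214 and 1835 in controls. FNIP2 had 204, 214 and 249.99 in SKF-96365 libraries, 187, 179 and 183 in 2-APB libraries, and 297, 217 and 189 in controls. The 3 high libraries were plain in FNIP1 and not in FNIP2, whose highest value was in control 1 and whose 2-APB libraries lay below every other library.

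RRAGC had 378, 483 and 485 normalized counts in SKF-96365 libraries, 326, 346 and 278 in 2-APB libraries, and 344, 345 and 484 in controls. RRAGD had 145, 243 and 220.2 in SKF-96365 libraries, 128, 150.3 and 120.3 in 2-APB libraries, and 168, 73.0 and 218 in controls. RRAGC did not overlap between 2-APB and SKF-96365 libraries, whereas RRAGD did, and control 2 was the lowest library for RRAGD. FLCN ran between 1389.7 in control 2 and 3181 in control 3. The log2 fold change of RRAGC for 2-APB against SKF-96365 was -0.50 (SE 0.18, unadjusted p = 0.0179, adjusted p = 0.684 in limma). That of FNIP2 for 2-APB against control was -0.32 (SE 0.18, adjusted p = 0.9995 in limma) and was -0.14 without control 1. That of RRAGD for SKF-96365 against control was 0.51 (SE 0.36, adjusted p = 0.789 in limma) and was 0.05 without control 2 and 0.83 without control 3.

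**Figure D3:**
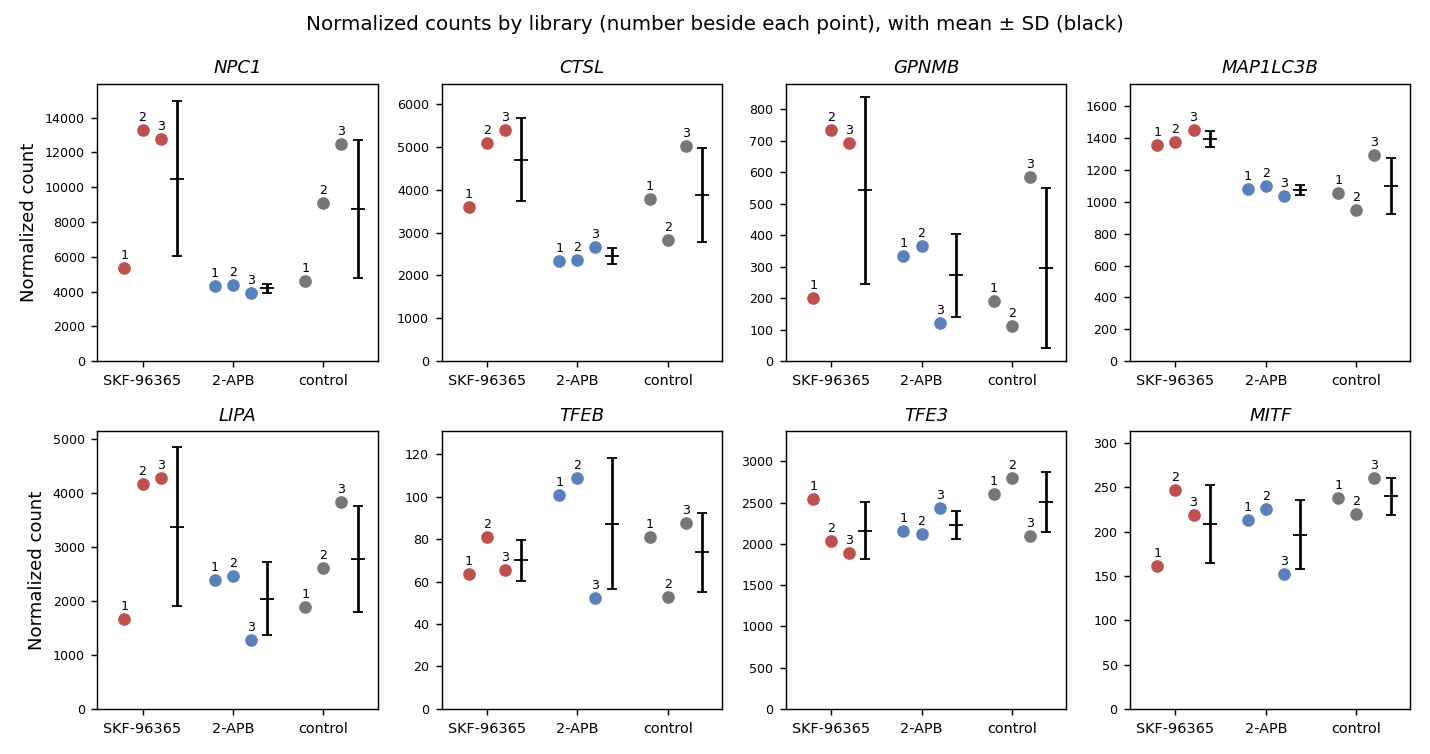
Normalized counts of 8 genes in each library, numbered by replicate, with the group mean and SD in black; the vertical axes start at 0. NPC1 and CTSL are lower in the 2-APB libraries than in every other library, and TFE3 is lowest where GPNMB and LIPA are highest.

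Among lysosomal lipid handling genes, only NPC1 had all 2-APB libraries below every other library, and it was not called. NPC1 encodes the membrane protein that moves cholesterol out of the lysosome together with the soluble NPC2. It had 5333, 13290.3 and 12783 normalized counts in SKF-96365 libraries, 4300.4, 4362 and 3886 in 2-APB libraries, and 4601, 9114 and 12492 in controls. The 2-APB libraries were the 3 lowest of the 9, with control 1 and SKF-96365 1 not far above them. CTSL and FNIP2 also had the 2-APB libraries lowest. Of all tested genes, 3.97% had the 2-APB libraries below all controls and 8.79% below all SKF-96365 libraries. The share with both was not taken. NPC1 averaged 10469 ± 4455 in SKF-96365, 4183 ± 259 in 2-APB and 8735 ± 3959 in control libraries (SD, n = 3 each). The log2 fold change was -0.95 (SE 0.39, unadjusted p = 0.0346) for 2-APB against control and -1.21 (SE 0.39, unadjusted p = 0.0107) for 2-APB against SKF-96365, with limma adjusted p of 0.9995 and 0.684. Over single left-out libraries the first lay between -1.35 without control 1 and -0.63 without control 3. For SKF-96365 against control the log2 fold change of NPC1 was 0.26 (SE 0.39), and its direction rested on single libraries, being -0.14 without control 1 and 0.69 without SKF-96365 1.

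LIPA, the acid lipase that frees cholesterol from its esters, had 1676, 4174 and 4291 normalized counts in SKF-96365 libraries, 2395, 2472 and 1276 in 2-APB libraries, and 1898, 2609 and 3831 in controls. The groups overlapped, and 2-APB 3 and SKF-96365 1 were the lowest libraries. Its log2 fold change was -0.44 (SE 0.40) for 2-APB against control and -0.66 (SE 0.40) for 2-APB against SKF-96365. With 1 library left out, the first lay between -0.69 without control 1 and -0.13 without 2-APB 3, and the second between -1.11 without SKF-96365 1 and -0.35 without 2-APB 3. PSAP, the precursor of the saposins that help degrade sphingolipids, ran between 7091 in 2-APB 3 and 16411 in SKF-96365 3, and NPC2 between 659 in 2-APB 3 and 1239 in control 3. PSAP was second only to CTSB per kilobase of exon, at a mean of 3579 normalized counts against 4948.

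The lysosomal proteases shared the order of libraries without exception. CTSL, cathepsin L, a cysteine protease, had 3597, 5099 and 5396 normalized counts in SKF-96365 libraries, 2336, 2364 and 2663 in 2-APB libraries, and 3788, 2832 and 5014 in controls. As in NPC1, the 2-APB libraries were the 3 lowest of the 9, here with SKF-96365 1 and control 1 in the middle of the range. CTSL averaged 4697 ± 964 in SKF-96365, 2455 ± 181 in 2-APB and 3878 ± 1094 in control libraries (SD, n = 3 each). Its log2 fold change was -0.62 (SE 0.21, unadjusted p = 0.0140) for 2-APB against control and -0.92 (SE 0.21, unadjusted p = 0.00136) for 2-APB against SKF-96365, with limma adjusted p of 0.9995 and 0.684. It was the smallest unadjusted p among the 40 genes in each of these comparisons, and over the 3 groups (F test, unadjusted p = 0.00407, adjusted p = 0.862). Over single left-out libraries the fold change against control lay between -0.83 without control 2 and -0.42 without control 3, and that against SKF-96365 between -1.10 without SKF-96365 1 and -0.81 without SKF-96365 3.

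CTSB, cathepsin B, the most abundant of the 40 genes, had 31957, 51477 and 53475 normalized counts in SKF-96365 libraries, 29746, 30238 and 27321 in 2-APB libraries, and 27208, 28677 and 50676 in controls. The 2-APB libraries lay below all SKF-96365 libraries and overlapped the controls, of which control 3 stood with SKF-96365 2 and 3. The log2 fold change was 0.38 (SE 0.26) for SKF-96365 against control and -0.61 (SE 0.26, unadjusted p = 0.0386, limma adjusted p = 0.684) for 2-APB against SKF-96365. The first was 0.67 without control 3, 0.62 without SKF-96365 1, 0.25 without SKF-96365 3 and 0.22 without control 1. Among the other proteases, cathepsin A (CTSA) ran between 1419 and 2476, cathepsin D (CTSD) between 499.9 and 967, cathepsin Z (CTSZ) between 1288 and 1774, and TPP1, which clips tripeptides, between 991 and 2176. Each of these 4 was lowest in 2-APB 3.

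The glycosidases, which trim sugars from glycogen, glycolipids and glycosaminoglycans, divided between 4 genes with the order of libraries and a pair without it. GAA, the acid alpha-glucosidase that degrades glycogen, ran between 425 in control 1 and 1127 in control 3. NAGLU ran between 334 in 2-APB 3 and 796 in control 3, HEXA between 591 in 2-APB 3 and 1158 in SKF-96365 3, and GLB1 between 480.2 in 2-APB 3 and 748 in control 3. GLA and GUSB were the least variable of the 40 genes, their highest library being 1.21 and 1.22 times their lowest. GLA had 527, 554 and 507 normalized counts in 2-APB libraries and 591, 595 and 615 in controls, without overlap, at a log2 fold change of -0.18 (SE 0.11, limma adjusted p = 0.9995).

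The lysosomal membrane proteins LAMP1 and LAMP2, which line the membrane's inner face with sugars, ran between 3429 and 5452 and between 2680.1 and 5428 normalized counts. Both were highest in SKF-96365 3 and lowest in 2-APB 3. SCARB2, the receptor that carries glucocerebrosidase to the lysosome, had 1693, 2879 and 2893 in SKF-96365 libraries, 1901, 1949 and 1536 in 2-APB libraries, and 1517, 1552 and 2498 in controls. Its groups overlapped, and its log2 fold change was 0.42 (SE 0.24) for SKF-96365 against control, 0.68 without SKF-96365 1, 0.65 without control 3 and 0.29 without control 1. The tetraspanin CD63 varied less, between 3828 in control 2 and 5019.6 in SKF-96365 3.

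The vacuolar ATPase is the pump that acidifies the lysosome, and its genes varied little. ATP6V1B2, a subunit of its catalytic head, had 1312, 1328 and 1342 normalized counts in SKF-96365 libraries, 1123, 1108 and 995 in 2-APB libraries, and 1259.6, 1112 and 1379 in controls. The 2-APB libraries lay below all SKF-96365 libraries and overlapped the controls, and the log2 fold change for 2-APB against SKF-96365 was -0.31 (SE 0.11, unadjusted p = 0.0224, limma adjusted p = 0.684). ATP6V0D1, whose promoter window holds the inner part of the CLEAR element, ran between 1254 in control 3 and 1688 in control 2, so that control 3 was its lowest library. ATP6V1H likewise was lowest in control 3, at 931, and highest in control 1, at 1226. ATP6V1A ran between 1789.7 in 2-APB 3 and 2355 in control 2. The accessory subunit gene ATP6AP1 shared the order of the proteases, with 1407 in 2-APB 3 and 2033 in SKF-96365 2.

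In the autophagy machinery, MAP1LC3B was the 1 gene of the 40 whose SKF-96365 libraries all lay above all controls. That order was shown by 3.26% of all tested genes. It encodes LC3B, the ubiquitin-like protein that is attached to autophagosome membranes. It had 1357, 1375 and 1451 normalized counts in SKF-96365 libraries, 1078, 1099 and 1038 in 2-APB libraries, and 1055, 946 and 1295 in controls. The SKF-96365 libraries were the 3 highest of the 9, SKF-96365 1 included, and the 2-APB and control libraries overlapped. It averaged 1394 ± 50.2 in SKF-96365, 1072 ± 30.9 in 2-APB and 1099 ± 178 in control libraries (SD, n = 3 each). The log2 fold change was 0.35 (SE 0.13, unadjusted p = 0.0183) for SKF-96365 against control and -0.38 (SE 0.13, unadjusted p = 0.0131) for 2-APB against SKF-96365, with limma adjusted p of 0.789 and 0.684. Over single left-out libraries the first lay between 0.25 without control 2 and 0.48 without control 3. For 2-APB against control it was -0.02 (SE 0.13), and 0.10 without control 3.

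WIPI1, which binds the lipid that marks growing autophagosomes, had 398, 516 and 590.3 normalized counts in SKF-96365 libraries, 329, 333 and 337 in 2-APB libraries, and 296, 350.0 and 551 in controls. The 2-APB libraries lay close together, below all SKF-96365 libraries and within the range of the controls. The log2 fold change was -0.57 (SE 0.22, unadjusted p = 0.0289, limma adjusted p = 0.684) for 2-APB against SKF-96365 and 0.36 (SE 0.22) for SKF-96365 against control. Leaving out control 1 gave 0.17 for the second, leaving out SKF-96365 3 gave 0.24, and leaving out control 3 gave 0.62. SQSTM1, the receptor p62 that brings cargo to autophagosomes, ran between 7931 in 2-APB 3 and 14264 in SKF-96365 3. GABARAPL1, a relative of LC3B, ran between 745 and 1932 in the same libraries. UVRAG, a partner of the lipid kinase of autophagy, ran between 299 in control 2 and 488 in SKF-96365 3, and the initiating kinase ULK1 between 595 in 2-APB 3 and 913 in SKF-96365 2.

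SKF-96365 against control gave a median log2 fold change of 0.20 over the 40 genes, with 30 above 0, beside -0.004 over all tested genes, of which 50.5% were below 0. Unadjusted p was under 0.05 for 1 of the 40, MAP1LC3B, beside 4.00% of all tested genes in limma. On reads recovered from the 8 other libraries, without SKF-96365 3, neither edgeR nor DESeq2 called any of the 40, and neither had an unadjusted p under 0.05 among them, beside 1.47% of all tested genes in edgeR and 1.38% in DESeq2. Groups did not overlap for 1 of the 40 in the higher direction, beside 3.26% of all tested genes, and for none in the lower direction, beside 2.94%. Over single left-out libraries the median lay between 0.06 without control 1 and 0.40 without control 3. Without control 3, 17 of the 40 had an unadjusted p under 0.05, beside 25.5% of all tested genes, with a smallest limma adjusted p of 0.0548. None of the 40 was called there, beside 0.989% of all tested genes.

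2-APB against control gave a median of -0.16 over the 40 genes, with 36 below 0, beside -0.002 over all tested genes, of which 50.3% were below 0. This direction rested on control 3: without it the median was 0.02 and 17 genes were below 0. Unadjusted p was under 0.05 for 2 of the 40, CTSL and NPC1, both lower, beside 2.80% of all tested genes in limma, of which 1.43% were lower. edgeR and DESeq2 also had 2 each, beside 2.10% and 2.00% of all tested genes, and called none. Groups did not overlap for 4 of the 40, all lower (CTSL, GLA, NPC1 and FNIP2), beside 3.97% of all tested genes in that direction.

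2-APB against SKF-96365 gave a median of -0.33 over the 40 genes, with 35 below 0, beside 0.007 over all tested genes, of which 49.0% were below 0. Over single left-out libraries it lay between -0.52 without SKF-96365 1 and -0.25 without SKF-96365 3. Unadjusted p was under 0.05 for 7 of the 40, all lower (CTSB, CTSL, NPC1, ATP6V1B2, RRAGC, MAP1LC3B and WIPI1), beside 7.30% of all tested genes in limma and 4.09% in the lower direction. It was so for 3 in edgeR and 2 in DESeq2, beside 2.81% and 2.76% of all tested genes, and neither called any. Groups did not overlap for 11 of the 40, all lower, beside 8.79% of all tested genes in that direction. They were the 7 just named together with CD63, FNIP2, UVRAG and ULK1. Over the 3 groups the F test had an unadjusted p under 0.05 for CTSL, NPC1 and MAP1LC3B, 3 of the 40, beside 4.02% of all tested genes. The 3 comparisons share their libraries and so are not independent of each other.

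**Figure D4:**
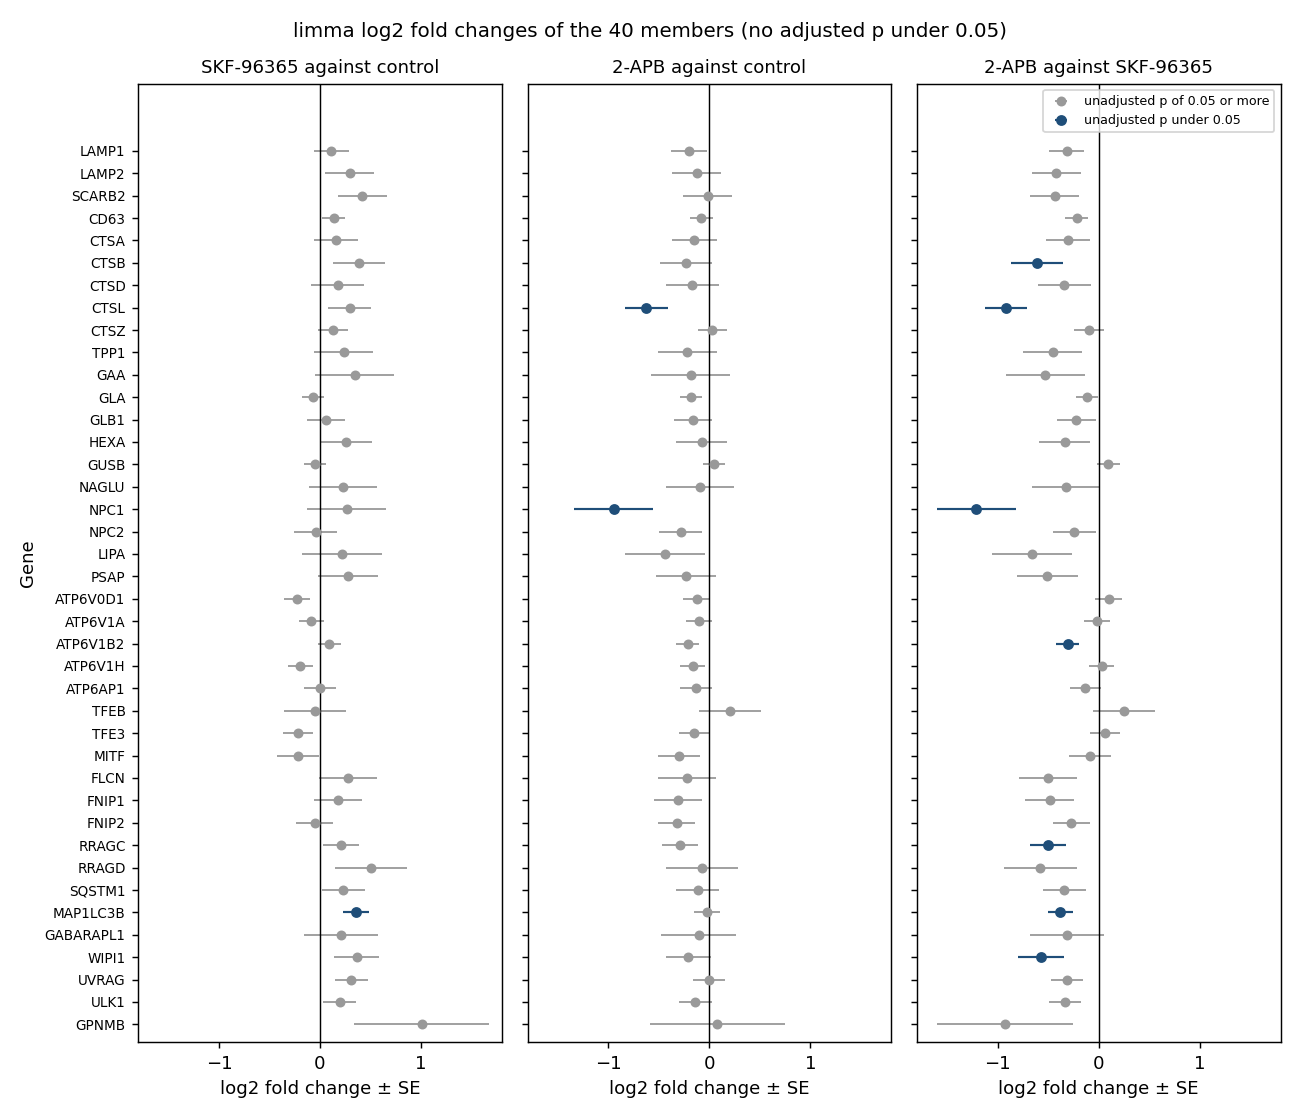
limma log2 fold changes with SE of the 40 genes in the 3 comparisons; dark points had an unadjusted p under 0.05, and no adjusted p was under 0.05. In 2-APB against SKF-96365, 35 of the 40 points lie below 0.

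Because control 3 and SKF-96365 1 stood with libraries of another group, the fit was repeated without both, a setting chosen after the data were seen. 2-APB 3, which also lay nearer to libraries of other groups than to 2-APB 1 and 2-APB 2, was kept. Leaving out libraries for standing apart narrows the spread that remains and also sets which way the fold changes move. These adjusted p are therefore too small, and the fold changes, directions and counts of this setting are given as a description only. SKF-96365 against control then called 28 of the 40 genes in limma, beside 27.6% of all tested genes. Of these, 25 were higher, beside 13.1% of all tested genes, and 3 were lower, ATP6V0D1, ATP6V1H and TFE3, beside 14.5%. GPNMB had a log2 fold change of 2.28, beside 1.01 with all 9 libraries. RRAGD had 1.05, CTSB 0.91, SCARB2 0.91, WIPI1 0.78, MAP1LC3B 0.50 and TFE3 -0.46. 2-APB against SKF-96365 called 20 of the 40, beside 13.1% of all tested genes. All 20 were lower, beside 6.61%, with NPC1 at -1.64, GPNMB at -1.54, LIPA at -1.11 and CTSL at -1.10. 2-APB against control called 0 of the 40, beside 0% of all tested genes, with 6 at an unadjusted p under 0.05, beside 15.8%. The F test over the 3 groups called 23 of the 40, beside 20.3% of all tested genes.

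Further genes of the same system were read in the same way, 106 of them on 5 lists. No gene of these lists was called in limma in any comparison, and 2, 1 and 6 of the 106 had an unadjusted p under 0.05 in SKF-96365 against control, 2-APB against control and 2-APB against SKF-96365, each a smaller share than the 4.00%, 2.80% and 7.30% of all tested genes. SKF-96365 2, SKF-96365 3 and control 3 were the 3 highest libraries for 34 of the 106, beside 16.4% of all tested genes, and the 3 lowest for 9, beside 17.6%. Other hydrolases and their activators had the order in 17 of 32 genes, and other lysosomal membrane proteins and channels in 6 of 14. It was found in 2 of 11 other subunits of the vacuolar ATPase, 3 of 16 genes of mTORC1, Ragulator and Rag signalling, and 6 of 33 other core autophagy genes, shares close to that of all tested genes. The median log2 fold change over the 106 was 0.04 for SKF-96365 against control, -0.08 for 2-APB against control and -0.10 for 2-APB against SKF-96365.

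The genes with the largest fold changes within those lists, at a mean of at least 50, followed the same libraries in part. CTSO, EPG5, TPCN1, CLCN7, SLC17A5, RRAGB and MAP1LC3A had SKF-96365 2, SKF-96365 3 and control 3 as the 3 highest libraries. IDS, RPTOR, ATP6V1D, ATP6V0C and VPS18 did not. Values are given here for some of these genes. CTSO, another cysteine cathepsin, had 122, 173 and 197 normalized counts in SKF-96365 libraries, 97.6, 125 and 92.7 in 2-APB libraries, and 64.2, 62.9 and 181 in controls, a log2 fold change of 0.83 (SE 0.38, limma adjusted p = 0.789) for SKF-96365 against control. EPG5, which tethers autophagosomes to lysosomes, had 2470.3, 4120.0 and 4328 in SKF-96365 libraries, 2386, 2464 and 1989 in 2-APB libraries, and 2079, 2701 and 3775 in controls, a log2 fold change of -0.64 (SE 0.25, limma adjusted p = 0.684) for 2-APB against SKF-96365. Both have control 3 near the 2 higher SKF-96365 libraries. RPTOR, the mTORC1 subunit raptor, had 1188, 1057 and 1007 in SKF-96365 libraries, 1030.4, 1064 and 1282 in 2-APB libraries, and 1287, 1405 and 1285 in controls. Here control 3 lay with the other controls and did not overlap the SKF-96365 libraries, at a log2 fold change of -0.29 (SE 0.12, limma adjusted p = 0.789). ATP6V1D, of the ATPase stalk, ran the other way to the 40 genes in general, with 867, 563 and 559 in SKF-96365 libraries, 609, 639.8 and 874 in 2-APB libraries, and 947, 988 and 593 in controls. ATP6V0C was higher in 2-APB, at log2 fold changes of 0.40 against control and 0.58 against SKF-96365 (limma unadjusted p = 0.0312 for the second, adjusted p = 0.9995 and 0.684). VPS18 had -0.38 for 2-APB against control (limma unadjusted p = 0.0203, adjusted p = 0.9995).

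Cells rich in lysosomes or in MITF targets were looked for by their markers. The summed normalized counts of 8 macrophage markers were 56.5 to 73.4 in SKF-96365, 81.8 to 109 in 2-APB and 59.98 to 203 in control libraries, with C1QA at 0 in every library, PTPRC at most 3.08, and control 3 holding 151 of CSF1R. The 2 macrophage markers that passed the filter, CD14 and ITGAM, had log2 fold changes for 2-APB against control of 0.66 (SE 0.27, unadjusted p = 0.0366) and 1.11 (SE 0.46, unadjusted p = 0.0363), with a limma adjusted p of 0.9995 each. CD14 had 47.2, 50.4 and 41.7 normalized counts in SKF-96365 libraries, 71.3, 81.6 and 47.3 in 2-APB libraries, and 35.8, 53.8 and 35.5 in controls. ITGAM had 13.98, 9.25 and 7.94 in SKF-96365 libraries, 24.1, 18.9 and 29.6 in 2-APB libraries, and 18.9, 5.07 and 11.5 in controls. CD14 overlapped between 2-APB and control libraries, as did ITGAM, and their part in the results was not tested. Those of 5 melanocyte markers were 33.7 to 44.6 in SKF-96365, 40.6 to 62.7 in 2-APB and 31.6 to 83.5 in control libraries, with TYR at 0 in every library and SOX10 at 57.4 in control 3. Those of 4 osteoclast markers were 175 to 236 in SKF-96365, 143 to 170 in 2-APB and 119 to 218 in control libraries, nearly all from TNFRSF11A, with OCSTAMP at 0 in every library. TNFRSF11A, the receptor RANK, had the order of libraries of the 40 genes, with 170.3, 175 and 230.1 normalized counts in SKF-96365 libraries, 167, 137 and 155 in 2-APB libraries, and 164, 117 and 209 in controls. SKF-96365 2 and 3, which stood with control 3 in the 40 genes, held at most 5.95 of CSF1R and 6.17 of SOX10. Of 7 fibroblast and mesenchymal markers, 5 passed the filter and 1, the collagen gene COL3A1, had the same order, with 275, 1006 and 929 normalized counts in SKF-96365 libraries, 745, 710.2 and 324 in 2-APB libraries, and 390.4, 262 and 902 in controls. The rest of the 5, VIM, COL1A1, COL1A2 and PDGFRB, did not have that order, and each was highest in a 2-APB library. VIM, the most abundant, had 39662, 25957 and 27405 normalized counts in SKF-96365 libraries. It had 28599, 27083 and 44039 in 2-APB libraries and 35036, 27724.5 and 26459 in controls. The parts of TNFRSF11A and of these mesenchymal genes in the results were not tested.

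Some values can include reads of other genes, since the strand setting is not given. MRNIP overlaps 20.7% of the exon bases of SQSTM1 on the opposite strand and averaged 1164 normalized counts against 11166 for SQSTM1. ARSG overlaps 24.3% of those of WIPI1 on the opposite strand and averaged 86.9 against 411. GUSB has pseudogene copies, of which GUSBP1 averaged 184, GUSBP18 146 and GUSBP11 121 against 1085 for GUSB, and MAP1LC3B has the near copy MAP1LC3B2, at 26.4 against 1188. The values of SQSTM1, WIPI1, GUSB and MAP1LC3B are uncertain to that extent.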

How the data were processed

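The labels' protocols name an RNeasy mini plus kit and a SMARTER mRNA-Seq kit. The authors deposited a signal per gene: counts divided by a DESeq2 size factor per library, per the submitters' processing notes, with no version. The aligner, read counter, build, gene annotation and strandedness are not given in the sources used here. Values were whole multiples of 1 read (within 0.001), which gave the reads of 8 libraries. For SKF-96365 3 they were not certain, so edgeR 4.0.16 and DESeq2 1.42.0 used the other 8.

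The main test was limma 3.58.1 (R 4.3.3, intensity trend, two-sided, tested on simulated data) on log2(normalized count + 1), in 1 fit of all 9 libraries, for the 17492 genes reaching 10 in 3 or more libraries. The simulated data had a fixed spread and no library that stood apart. They do not show what size of change the test would find in these libraries. A call was an adjusted p (Benjamini-Hochberg over those genes) under 0.05. Exon lengths came from GENCODE 29. Intervals are not given. The SE come from the same limma fit as its p-values and rest on the spread among libraries. PCR copies among the reads are not separate molecules.

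The 40 genes and other lists were chosen with earlier results of these data known. Values per library are given for the 3 factors, the 5 largest fold changes per contrast and unadjusted p under 0.05. From each other list, genes with the largest fold change at a mean of at least 50 were eligible. Alternatives varied pseudocount, filter, scaling, model, groups fitted, replicate block and left-out library.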

Additional observations from a re-analysis of the deposited data

How the results depend on the processing

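No gene of the 40 was called in any of the 3 comparisons with a pseudocount of 0.5 or 5, no filter, a minimum mean of 50 or other scalings (upper-quartile, quantile, TMM). The same held with no trend, robust fitting, only the 2 groups compared, each library left out, edgeR or DESeq2. The F test, not run with only the 2 groups compared, called none of the 40 either. Of all tested genes 0% were called in these settings, with the following exceptions. Without control 3, the shares were 0.989% for SKF-96365 against control, 0.0229% for 2-APB against SKF-96365 and 0.0286% by the F test. With only the 2 groups compared, 0.0229% were called for 2-APB against SKF-96365. DESeq2 called 0.0114% for SKF-96365 against control, 0.00572% for 2-APB against SKF-96365 and 0.0114% by the F test. With control 3 and SKF-96365 1 both left out, chosen after seeing the data, the counts among the 40 were 28, 0 and 20, and 23 by the F test. In that setting MITF and TFEB turned to 0.023 and 0.15 for SKF-96365 against control. TFE3 for 2-APB against SKF-96365 turned to -0.042 in edgeR and -0.038 in DESeq2. Over left-out libraries, TFEB ran from -0.27 to 0.091 for SKF-96365 against control and from -0.018 to 0.53 for 2-APB against control, and for 2-APB against SKF-96365 MITF ran from -0.26 to 0.089 and TFE3 from -0.031 to 0.18. For 2-APB against control, GPNMB ran from -0.45 to 0.74, and was -0.12 in edgeR and -0.12 in DESeq2. MAP1LC3B ran there from -0.13 to 0.10, and was 0.016 with upper-quartile scaling, 0.022 with quantile scaling and 0.10 with both libraries left out. NPC1 for SKF-96365 against control ran from -0.14 to 0.69. The cause of these turns was not tested. With only the 2 groups compared, 12 genes had an unadjusted p under 0.05 for 2-APB against SKF-96365, beside 12.2% of all tested genes, in place of 7. All 40 genes have a mean of at least 50 normalized counts.

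The labels number the libraries 1 to 3 in each group without saying that a number marks a shared culture or day. Deviations of same-numbered libraries correlated at -0.35 to 0.50, so the numbers were not taken as pairs. With the replicate block, 0 of the lysosomal and autophagy genes were called in each comparison and 0 by the F test, beside 0% of all tested genes. Unadjusted p was under 0.05 for 1, 2 and 7 of them, as without the block. The shares of all tested genes were 4.10% for SKF-96365 against control, 2.46% for 2-APB against control and 7.20% for 2-APB against SKF-96365.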
